A study of Danio rerio with 4 samples.

Results

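Nearly all mitochondrial proteins are made in the cytosol and must be carried across the mitochondrial membranes, folded and, when damaged, degraded. Genes of this machinery were examined in zebrafish liver RNA. A gene belonged to the set if its symbol in the platform's annotation table was that of a translocase subunit of the outer membrane (tomm) or inner membrane (timm), samm50, a matrix chaperone or its cofactor (hspa9, grpel, hspd1, hspe1, trap1), a subunit of the presequence peptidase (pmpca, pmpcb), the insertase oxa1l, a prohibitin (phb) or a mitochondrial protease (lonp1, clpp, clpx, afg3l, htra2). The symbols gave 40 genes of 15554 named ones, and 61 probes of 43603. No probe carried the symbol htra2.

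The study exposed zebrafish to 0 or 5 µM cadmium and took liver RNA at day 4. It compared 2 control RNAs (replicates 2 and 3) with 2 cadmium RNAs (replicates 1 and 2) on 4 two-colour Agilent arrays, as a trial for a custom array. The micromolar unit is that of the design text, and the sample labels write degrees C beside the same numbers. The labels used here give no strain, sex or age of the fish, nor how many fish went into an RNA. The arrays formed a loop, so that each RNA met both RNAs of the other group, once in each dye. Arrays 1 and 2 compared cadmium replicate 1 with control replicates 2 and 3, and arrays 4 and 3 did so for cadmium replicate 2.

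Import begins at the TOM complex of the outer membrane, whose Tom20 and Tom22 receptors pass precursors to the Tom40 pore. From there, small Tim chaperones carry hydrophobic proteins through the intermembrane space, and the TIM23 channel threads presequence proteins into the matrix, pulled by mitochondrial Hsp70. In the matrix the presequence is cut off, chaperonins fold the protein, and proteases such as Lon and ClpXP remove what fails to fold. In mammals, a shortage of folding capacity in the matrix induces the genes of the matrix chaperones and of ClpP, which is known as the mitochondrial unfolded protein response.

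The genes of the set lay higher in cadmium than in control liver in 35 of 40 cases, against 56.9% of all named genes. The leading ones were the Hsp70 cofactor grpel1 (1.75-fold), the prohibitin phb (1.67-fold), the small import chaperone timm10 (1.64-fold) and the chaperonin gene hspe1 (1.64-fold). The median log2 difference over the set was 0.17, and over all named genes it was 0.02. All signs take the deposited log2 ratio as Cy5 over Cy3, which is the likely direction because limma and the array titles put Cy5 first. Under the opposite direction every sign in this text would turn, with sizes and tests kept.

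None of these differences passed the test. In limma with Benjamini-Hochberg adjustment over all named genes, 0 of the 40 genes had an adjusted p under 0.05, against a background of 0%, and their smallest adjusted p was 0.9998. At an unadjusted p under 0.05 in limma, 12 of the 40 genes (30%) stood out, against 2.02% of all genes. Those that met this threshold and were higher numbered 11 of the 40 (27.5%), against 1.07% of all genes. Differences are therefore given below as values with a moderated standard error (SE, 2 RNAs per group).

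The set was also counted by other rules. Of the 40 genes, 16 were higher on all 4 arrays (7.99% of all genes) and 1 was lower on all 4 (6.9%). Both cadmium RNAs stood above both control RNAs for 20 genes (11.7% of all genes), and below both for 1 (10.2%). A total of 15 genes lay among the highest 5% of all differences. Above 0 on all 4 arrays, with a log2 difference (the mean of the arrays) of at least 0.5, were 6 genes (0.649% of all genes), namely grpel1, phb, timm10, hspe1, timm10b and samm50. No gene of the set was lower by that rule (1.08%). Of the 6 genes, hspe1 alone had more than 1 probe.

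**Figure D1:**
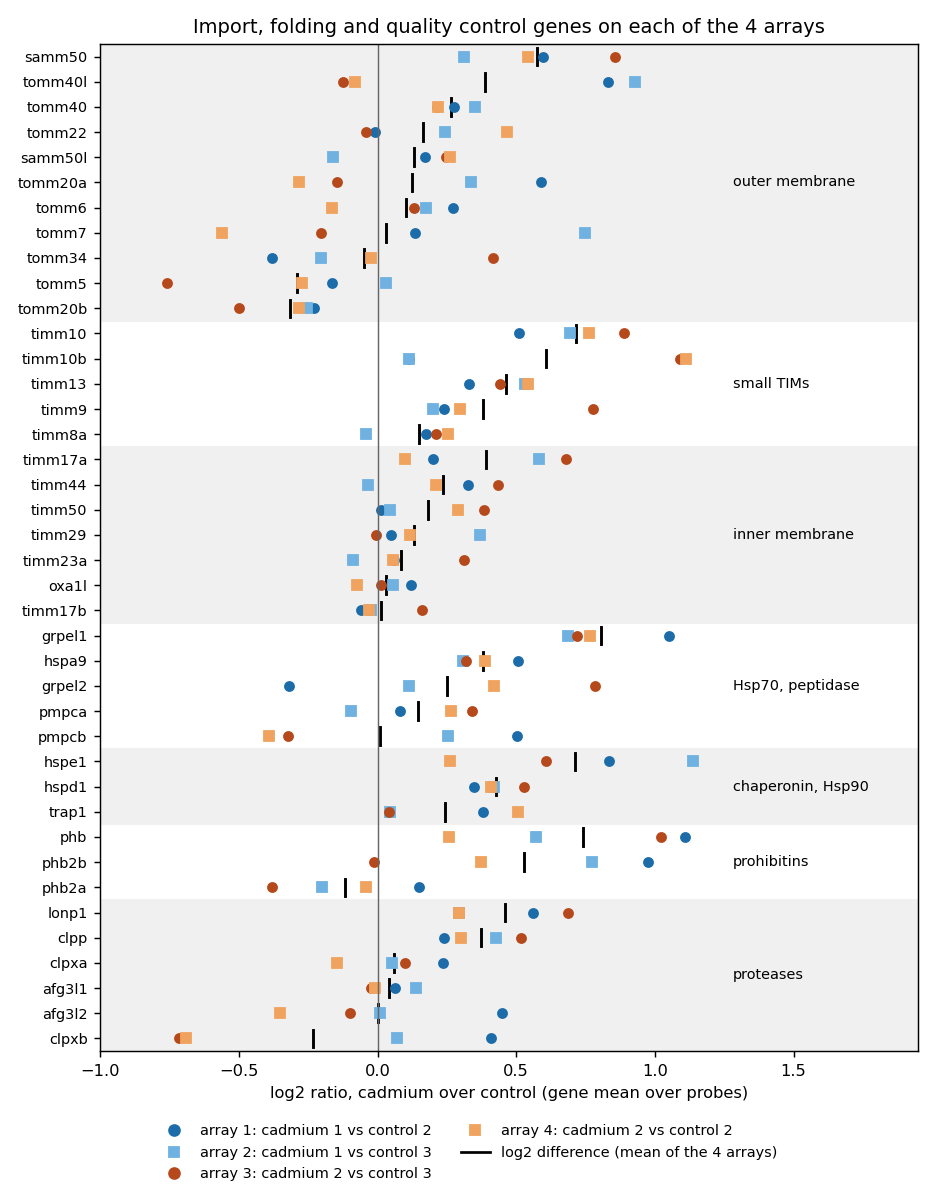
Log2 ratio of cadmium over control for each of the 40 genes on each of the 4 arrays, grouped by role. Points are arrays, coloured blue for cadmium replicate 1 and orange for cadmium replicate 2, and the black bar is the mean of the 4 arrays. The points of grpel1 lie between 0.69 and 1.05, whereas those of tomm7 spread from -0.56 to 0.75.

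The liver RNAs were not alike in their tissue content. Of the 4 RNAs, cadmium replicate 2 had the highest value for 27 of 27 measured markers of ovary and oocytes, and cadmium replicate 1 the lowest for 25. Their median log2 value relative to the mean of the 4 RNAs was -0.43 and -0.16 in control replicates 2 and 3, -0.69 in cadmium replicate 1 and 1.33 in cadmium replicate 2. Among the genes of import, folding and quality control, 1 of 40 had that order of the cadmium RNAs, the cytosolic co-chaperone gene tomm34, against 17.7% of all genes. That order needs cadmium replicate 1 to be the lowest of the 4 RNAs. The 20 genes with both cadmium RNAs above both controls therefore cannot have it. Cadmium replicate 2 was the highest RNA for 19 of the 40 genes, against 38.7% of all genes. Of 15 exocrine pancreas markers 12 were highest in control replicate 2, against 18.8% of all genes. Their medians were 0.73, -0.86, 0.01 and 0.34 in control replicates 2 and 3 and cadmium replicates 1 and 2. For 7 intestine markers these medians were 0.20, -0.10, -0.20 and 0.52. By log2 difference, 27 of 27 ovary and oocyte markers and 12 of 15 exocrine pancreas markers were higher in cadmium, against 56.9% of all genes. Their median log2 differences were 0.59 and 0.33, where that of the set was 0.17. Of the intestine markers 4 of 7 were higher, and of the hepatocyte markers 9 of 18. Leukocyte markers were higher in cadmium in 2 of 13 cases, skeletal muscle markers in 4 of 15 and red cell markers in 4 of 8. The median log2 difference was -0.05 for the leukocyte markers and also for the skeletal muscle markers. The 18 measured hepatocyte markers had medians between -0.06 and 0.04 in the 4 RNAs. Single markers spread more widely, from -0.80 to 0.32 in cadmium replicate 2 and from -0.43 to 0.47 in control replicate 3. On all 4 arrays, 2 of the 18 were higher (7.99% of all genes) and 2 lower (6.9%). Ratios carry no level, so it could not be seen whether any marker was absent, and in bulk RNA fewer cells of a type and less RNA per cell cannot be told apart. The part of these tissues in the differences below was not tested. The set was also computed without each RNA, which cannot separate tissue content from cadmium, because the remaining RNAs still differ in these markers. The median difference of the set was 0.22 without cadmium replicate 2 and 0.22 without cadmium replicate 1, and the number of higher genes was 32 and 27 of 40, where 47.5% and 55.0% of all genes were higher.

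The Hsp70 motor of the matrix held the gene with the highest value of the set. The nucleotide exchange factor gene grpel1 (Entrez Gene 559037), which resets mitochondrial Hsp70 after each cycle, was at 1.05, 0.69, 0.72 and 0.76 on arrays 1 to 4. All 4 arrays lay well above 0, and the log2 difference was 0.81 ± 0.12 (SE). The RNA-level values were -0.50 and -0.30 in control replicates 2 and 3 and 0.47 and 0.34 in cadmium replicates 1 and 2, so the groups did not overlap. Its paralogue grpel2 was at 0.25 ± 0.30, with array 1 at -0.32 and array 3 at 0.78, and its groups overlapped.

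The Hsp70 gene itself, hspa9 (Entrez Gene 373085), was at 0.51, 0.31, 0.32 and 0.39 on the 4 arrays, a narrow range on the higher side. Its log2 difference was 0.38 ± 0.10 (SE). This mean hides a split among its 4 probes, which gave 0.68, 0.53, 0.39 and -0.07. The 3 higher probes were each above 0 on all 4 arrays, and the lowest one was above 0 on array 1 alone. The tether that holds this Hsp70 at the channel exit, timm44 (Entrez Gene 541380), was at 0.33, -0.03, 0.43 and 0.21, and its log2 difference was 0.23 ± 0.10. It was thus higher on all arrays but array 2, and both of its probes were above 0 (0.30 and 0.17). Without cadmium replicate 2, timm44 was at 0.15.

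The presequence peptidase removes the targeting signal from imported proteins. Of its subunits, pmpca lay near the set median of 0.17, with overlapping groups, and pmpcb near 0. The log2 difference was 0.15 ± 0.14 for pmpca and 0.01 ± 0.28 for the catalytic subunit pmpcb. For pmpcb the cadmium RNAs stood on opposite sides of both controls, at 0.37 in replicate 1 and -0.36 in replicate 2.

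Both genes of the matrix chaperonin were higher on all 4 arrays. The chaperonin ring gene hspd1 (Entrez Gene 282676, Hsp60) was at 0.35, 0.42, 0.53 and 0.41, and its log2 difference was 0.43 ± 0.09 (SE). Its cap, hspe1 (Entrez Gene 58041, Hsp10), was at 0.84, 1.14, 0.61 and 0.26, with a log2 difference of 0.71 ± 0.24. The values of hspe1 were higher in cadmium replicate 1 (0.63) than in replicate 2 (0.08), and without replicate 1 its difference was 0.44. These are adjacent protein-coding genes in RefSeq's assembly GRCz12tu.

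The probes of the chaperonin genes did not all tell the same story. The probes of hspe1 were close together, at 0.74 and 0.68. Those of hspd1 were at 0.84 and 0.01. The former, A_15_P107421, lay between 0.74 and 0.95 on the 4 arrays, and the latter, A_15_P118622, between -0.18 and 0.32. The value of hspd1 is thus an average of a probe that was far above 0 and one at 0, and which of them measures the transcript was not tested. The third gene of this role, the mitochondrial Hsp90 gene trap1, was at 0.24 ± 0.17, and its 4 arrays were all above 0. It was at 0.04 without control replicate 2 and at 0.44 without control replicate 3.

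Over the set, 17 genes had more than 1 probe, and in 13 of them (76.5%) the probes lay on one side of 0, against 58.0% of 6104 such genes in all. The exceptions were hspa9, tomm6, clpxa and afg3l2. In size the probes of the set were not closer together, with a median range within a gene of 0.14, against 0.11 over all such genes. Apart from hspd1 and hspa9, the widest gap was that of tomm40, with probes at 0.46, 0.32 and 0.015. Genes with 1 probe, among them grpel1, phb, timm10, timm10b, samm50 and lonp1, could not be checked in this way.

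**Figure D2:**
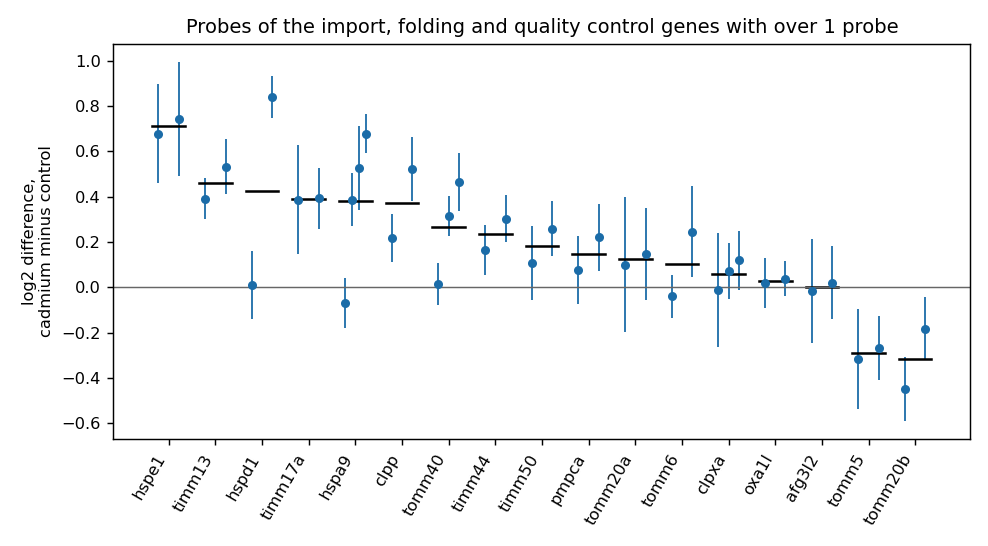
Log2 difference of each probe, cadmium minus control, for the 17 genes with more than 1 probe, in order of the gene's mean. Points are probes with their moderated SE as bars, and black lines are the gene means. The probes of hspd1 (0.84 and 0.01) and of hspa9 (from -0.07 to 0.68) lie far apart, and those of hspe1 close together.

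The small chaperones of the intermembrane space were higher in 5 of 5 cases, against 56.9% of all genes, with a median log2 difference of 0.46. They form ring-shaped pairs, Tim9 with Tim10 and Tim8 with Tim13, that shield hydrophobic stretches of carrier and barrel proteins. The leading one, timm10 (Entrez Gene 436951), was at 0.51, 0.70, 0.89 and 0.76 on arrays 1 to 4, all on the higher side, with a log2 difference of 0.71 ± 0.13 (SE). Its partner timm9 was at 0.38 ± 0.16 and lay between 0.20 and 0.78 on the arrays, and without cadmium replicate 2 it was at 0.22. In the other pair, timm13 was at 0.46 ± 0.09, with both probes higher on all 4 arrays, and timm8a at 0.15 ± 0.11. For timm8a, leaving out an RNA gave values from 0.066 (cadmium replicate 2) to 0.23 (cadmium replicate 1).

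The remaining small Tim gene, timm10b (Entrez Gene 550527), encodes a subunit found at the TIM22 carrier translocase. It was at 0.11 and 0.11 on arrays 1 and 2 and at 1.09 and 1.11 on arrays 3 and 4. All arrays were above 0, but the difference of 0.61 ± 0.36 came mostly from cadmium replicate 2, the RNA with the high ovary markers. Without that RNA, timm10b was at 0.11, and leaving out the other cadmium RNA gave 1.1.

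The inner membrane translocases lay on the higher side in 7 of 7 cases, against 56.9% of all genes, but by less, with a median log2 difference of 0.13. Among them, timm17b lay below the median of all genes, and timm17b, timm23a and oxa1l turned sign when 1 RNA was left out. Of the TIM23 complex, timm17a was at 0.39 ± 0.19, the receptor timm50 at 0.18 ± 0.14 and the channel subunit timm23a at 0.08 ± 0.11. Leaving out cadmium replicate 2 gave 0.029 for timm50, and leaving out cadmium replicate 1 gave 0.34. The paralogue timm17b was at 0.01 ± 0.10, and its sign turned with the scaling of the arrays. For timm17a the cadmium RNAs were alike (0.20 and 0.19), while the controls were apart (0.05 and -0.44), and leaving out control replicate 3 gave 0.15 and leaving out control replicate 2 gave 0.63. The TIM22 subunit timm29 was at 0.13 ± 0.10, with values from 0.056 (cadmium replicate 1 left out) to 0.21 (cadmium replicate 2 left out), and oxa1l, which inserts proteins from the matrix side, at 0.03 ± 0.09.

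The outer membrane genes, grouped with the cytosolic co-chaperone gene tomm34, were mixed. Of these 11 genes 8 were higher, against 56.9% of all genes, and the median log2 difference was 0.12. The gene with the highest value was samm50 (Entrez Gene 393111), the core of the machinery that inserts barrel proteins. It was at 0.60, 0.31, 0.85 and 0.54 on arrays 1 to 4, with a log2 difference of 0.58 ± 0.12 (SE), and its groups did not overlap. Its relative samm50l was at 0.13 ± 0.13, and leaving out an RNA gave values from 0.0064 (cadmium replicate 2) to 0.25 (cadmium replicate 1). The pore gene tomm40 was at 0.26 ± 0.09, with the 4 arrays between 0.21 and 0.35. The receptor gene tomm22 was at 0.16 ± 0.10, or 0.10 with control replicate 2 left out. On arrays 1 to 4 tomm22 was at -0.01, 0.24, -0.04 and 0.47, so it was above 0 only where cadmium was in Cy5. Its dye effect, 0.19, was larger than its log2 difference.

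The Tom20 receptor is encoded by 2 genes, whose values differed in sign. tomm20b was the gene of the set that was lower on all 4 arrays, at -0.23, -0.25, -0.50 and -0.28, with a log2 difference of -0.32 ± 0.11. This holds for the mean of its 2 probes, which were at -0.45 and -0.18. The former was below 0 on all 4 arrays, and the latter was above 0 on array 2 (0.09). tomm20a was at 0.59 and 0.34 on the arrays of cadmium replicate 1 and at -0.15 and -0.28 on those of replicate 2, with a log2 difference of 0.12 ± 0.26. Of the small subunits that steady the TOM complex, tomm5 was at -0.29 ± 0.19, tomm6 at 0.10 ± 0.12 and tomm7 at 0.03 ± 0.35. For tomm5 the difference was -0.07 without cadmium replicate 2 and -0.52 without cadmium replicate 1. The pore paralogue tomm40l was at 0.39 ± 0.36 and tomm34 at -0.05 ± 0.22. Per-array values of tomm20a, tomm20b, tomm22 and the genes of the split described below were picked out after they were seen.

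The prohibitins form a ring scaffold of the inner membrane, built from Phb1 and Phb2. For phb (Entrez Gene 321346), which encodes the former, the arrays gave 1.11, 0.57, 1.02 and 0.26. The values were higher where cadmium was in Cy3 (arrays 1 and 3), with a dye effect of -0.32 that cancels in the log2 difference of 0.74 ± 0.11 (SE). The RNA-level values were -0.31 and -0.43 in the controls and 0.47 and 0.27 in the cadmium RNAs, so the groups were well apart. Of the 2 genes for Phb2, phb2b was at 0.53 ± 0.28, with 0.61 in cadmium replicate 1 and -0.08 in replicate 2, and its difference was 0.18 without the former and 0.87 without the latter. The other, phb2a, was at -0.12 ± 0.16 with overlapping groups.

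Among the proteases, the Lon gene and the peptidase gene of ClpXP had the higher values. For lonp1 (Entrez Gene 563257), which degrades oxidized matrix proteins, the arrays gave 0.56, 0.29, 0.69 and 0.30, and the log2 difference was 0.46 ± 0.09 (SE). For clpp (Entrez Gene 553713) they gave 0.24, 0.43, 0.52 and 0.30, with a log2 difference of 0.37 ± 0.11. In both genes the groups did not overlap and the cadmium RNAs were close together, at 0.20 and 0.26 for lonp1 and 0.15 and 0.22 for clpp. The probes of clpp were at 0.52 and 0.22.

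The unfoldase that feeds ClpP is encoded by clpxa and clpxb, and these did not share the values of clpp. The log2 difference was 0.06 ± 0.10 for clpxa and -0.23 ± 0.35 for clpxb. On arrays 1 to 4 clpxb was at 0.41, 0.07, -0.72 and -0.69, so it was high in cadmium replicate 1 and low in replicate 2. The membrane-bound AAA protease genes afg3l1 and afg3l2 were at 0.04 ± 0.09 and 0.002 ± 0.184.

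The genes thus differed in how far the cadmium RNAs agreed. Each cadmium RNA stood above the mean of the controls for 22 of the 40 genes, against 23.7% of all genes. The log2 difference from the control mean in cadmium replicates 1 and 2 was 0.87 and 0.74 for grpel1, 0.84 and 0.64 for phb, 0.60 and 0.83 for timm10, 0.43 and 0.49 for lonp1, and 0.38 and 0.47 for hspd1. In contrast, 9 genes had cadmium replicate 1 highest and cadmium replicate 2 lowest of the 4 RNAs, against 11.7% of all genes. These were tomm7, tomm20a, tomm40l, pmpcb, clpxa, clpxb, afg3l1, afg3l2 and oxa1l. The widest of these gaps was that of tomm40l, at 0.88 in cadmium replicate 1 and -0.10 in replicate 2. The median size of the difference between the cadmium RNAs was 0.20 over the set and 0.16 over all genes, and that between the control RNAs 0.11 and 0.11.

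**Figure D3:**
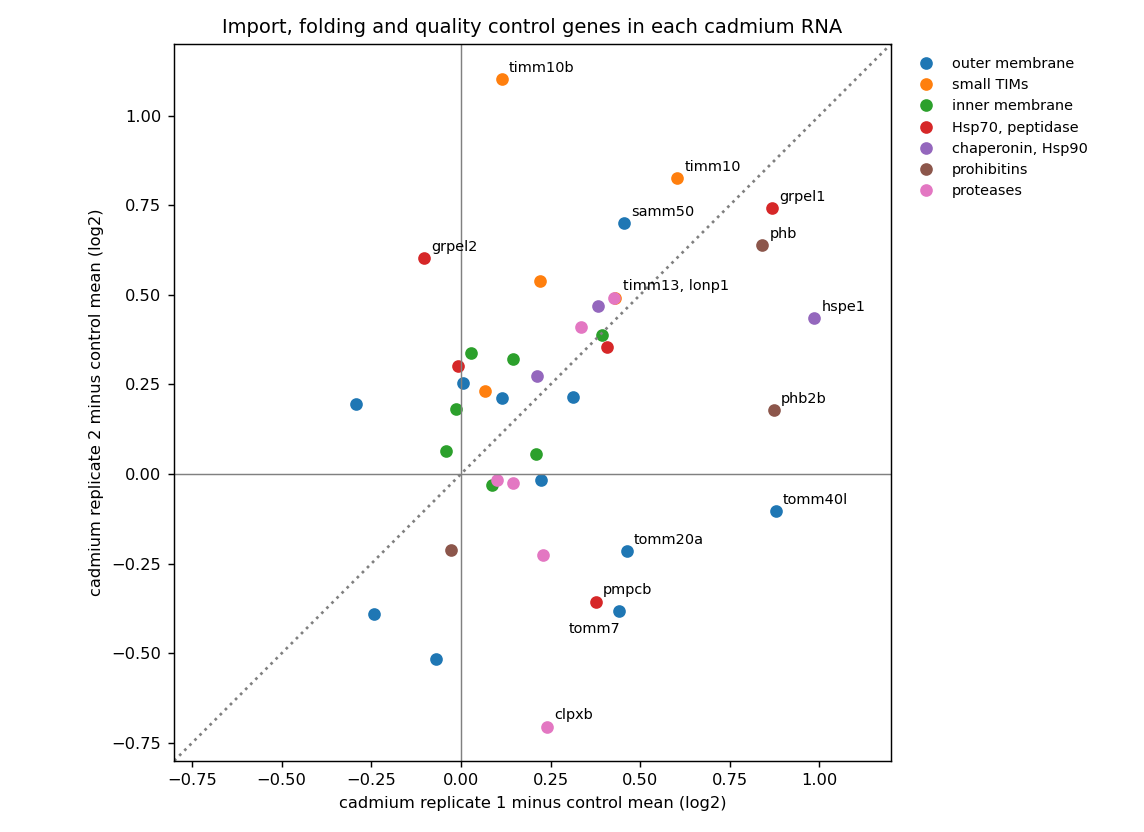
Each of the 40 genes by its log2 difference from the control mean in cadmium replicate 1 (horizontal axis) and in cadmium replicate 2 (vertical axis). Points are genes coloured by role, and the dotted line marks equal values. The 22 genes to the upper right are above the control mean in both RNAs, and tomm7, pmpcb and clpxb lie to the lower right.

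By array, the number of genes of the set above 0 was 34, 31, 27 and 25 of 40 on arrays 1 to 4, where 50.8%, 46.6%, 55.9% and 53.7% of all genes were. The set medians on those arrays were 0.24, 0.19, 0.23 and 0.23. Both arrays of cadmium replicate 1 were above 0 for 28 genes (25.2% of all genes), and both arrays of cadmium replicate 2 for 22 (37.8%). Without cadmium replicate 1, limma called 6 of the 40 genes against 9.36% of all genes, in a fit where 1 RNA carries the treatment and its spread is taken from the controls. Of these, grpel1, phb, samm50, timm10 and timm10b were higher and clpxb lower. When any of the other RNAs was left out, limma called 0 of the 40 genes.

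Other groups of mitochondrial genes are set beside these, without a test of the difference. The 68 genes of the mitochondrial ribosome had a median log2 difference of 0.23, with 61 higher (89.7%, against 56.9% of all genes). Their medians were -0.07 and -0.16 in the control RNAs and 0.14 and 0.06 in the cadmium RNAs. The set itself had medians of -0.10 and -0.12 in the controls and 0.15 and 0.15 in cadmium. The 86 subunits of the respiratory chain and ATP synthase had a median difference of 0.10, and their cadmium medians were on opposite sides, at 0.24 in replicate 1 and -0.15 in replicate 2. Among these subunits 66 were highest in cadmium replicate 1 and 5 in cadmium replicate 2. Of the 40 import, folding and quality control genes, 18 and 19 were, and of all genes 21.6% and 38.7%.

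**Figure D4:**
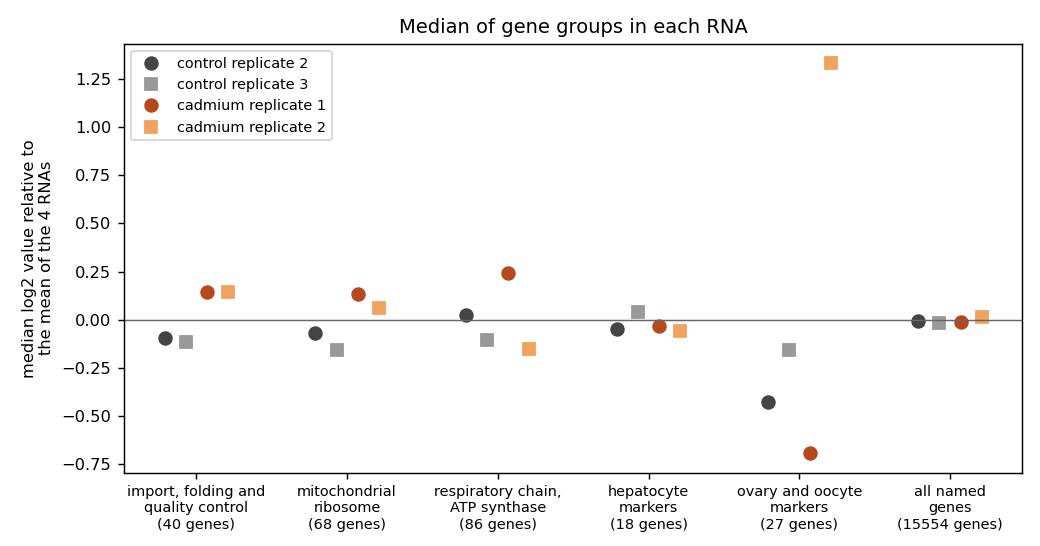
Median log2 value of each gene group in each of the 4 RNAs, relative to the mean of the RNAs, with the number of measured genes under each name. Grey points are controls and orange points cadmium RNAs. Both cadmium points of the import, folding and quality control genes are at 0.15, whereas those of the ovary and oocyte markers are at -0.69 and 1.33.

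A list of further import and processing factors that the symbols above do not cover numbered 26 genes on the arrays. It also held the outer membrane channel genes vdac1, vdac2 and vdac3, and timmdc1. Of these, 15 were higher (57.7%, against 56.9% of all genes). All 4 arrays were above 0 for 5 of them (7.99% of all genes) and below 0 for 3 (6.9%). The presequence-degrading peptidase gene pitrm1 was at 0.28 ± 0.08 and chchd4a, which oxidizes imported proteins of the intermembrane space, at 0.49 ± 0.22. On the lower side were the outer membrane channel gene vdac3 (-0.38 ± 0.10) and timmdc1 (-0.34 ± 0.16), which encodes an assembly factor of complex I. Other folding and protease factors were higher in 17 of 23 cases (73.9%, against 56.9% of all genes). All 4 arrays were above 0 for 8 of these 23 genes (7.99% of all genes) and below 0 for 2 (6.9%). Among the 23 genes, atad3 was at 0.55 ± 0.18, chchd10 at 0.63 ± 0.24, bcs1l at 0.26 ± 0.10 and fkbp8 at 0.26 ± 0.11. Genes of the MICOS complex, which shapes the folds of the inner membrane, were higher in 6 of 9 cases (66.7%). Of these 9 genes, 4 were above 0 on all 4 arrays and 0 were below 0 on all 4. Here immt was at 0.24 ± 0.11, micos10 at 0.28 ± 0.13, micos13 at 0.19 ± 0.13 and chchd3a at -0.17 ± 0.12. No gene of these lists passed the test in limma.

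A list of regulators of the mitochondrial stress response and of mitochondrial biogenesis, which also held target genes such as asns, had 23 measured genes. Of these, 13 were higher (56.5%, against 56.9% of all genes). The median log2 difference was 0.02, and none passed the test. All 4 arrays were above 0 for 7 of the 23 genes (7.99% of all genes) and below 0 for 4 (6.9%). The heat shock factor gene hsf2 was at 0.67 ± 0.23 and the asparagine synthetase gene asns, a target of Atf4, at 0.32 ± 0.09. Both were above 0 on all 4 arrays. Lower were atf4b (-0.40 ± 0.14) and ddit3 (-0.45 ± 0.17), which encode stress-induced transcription factors, each on all 4 arrays. Picked out after their values were seen, atf5a, a relative of the worm factor that drives the mitochondrial unfolded protein response, was at 0.02 ± 0.13 and atf4a at 0.17 ± 0.33.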

How the data were processed

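Per the labels, liver RNA of 2 control and 2 cadmium RNAs was hybridised to 4 two-colour Agilent arrays in a loop, with labelling by version 5.7 of Agilent's protocol. The deposited values are log2 ratios between the dyes for 43603 probes on each array. Per the submitters' processing notes limma was used. Its version and the authors' background correction, normalization and filtering are not stated in those sources. The log base was taken as 2 because the largest value, 6.14, would exceed a scanner's range in base 10, and column medians near 0 (at most 0.004 in size) show centring by an unknown method. Array 1 correlated with array 3 at r = -0.04 and array 2 with array 4 at r = -0.22 across probes. The arrays of each pair share no RNA and have the same dye order. Across all probes, the ratios between cadmium and control thus did not recur from a comparison of RNAs to the separate one. Precision is limited by the number of RNAs, 2 per group, and signal over background is not given.

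Genes were named through the platform's annotation, which covers 23717 probes, and a gene's value is the mean over its probes. The 4 ratios were solved for 4 RNA-level values, relative to their mean, and 1 dye effect. Cadmium and control were compared over RNAs with lmFit and eBayes (limma 3.58.1, R 4.3.3). Tests were two-sided and adjusted by Benjamini-Hochberg over all named genes, at a threshold of 0.05. The fit has 2 residual and 1.91 prior degrees of freedom. In a loop, array noise weighs more on the difference within a group than on that between groups, which makes the test cautious where such noise prevails. The solution returned the simulated differences when tested on simulated data. The ratios are solved exactly, so this checks the arithmetic and not the limma test or the noise of these data.

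The genes, lists and marker genes were chosen with earlier results of these data known. Array values were to be printed for genes whose arrays share a sign and whose difference reaches 0.5 in size, for hspd1, hspe1, hspa9, grpel1, lonp1 and clpp, and for the gene of largest moderated t in each role, and lists by their 4 largest. Array values of other genes were picked after they were seen. Alternatives were arrays as units, scaling, quantile normalization, the median over probes, a variance filter, and each RNA left out. The labels call the replicates biological without naming their source, so the p-values reflect only how these RNAs vary.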

Additional observations from a re-analysis of the deposited data

How the results depend on the processing

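Arrays as units with a dye term, scaling, quantile normalization and the median over probes called 0 genes, as did the fit of single probes and the fit without the genes of lowest variance, which left 34 of the 40. Arrays as units without a dye term called 2 of all genes and none of the set, whose smallest adjusted p was then 0.111. The number of genes above 0 was 34 after scaling or quantile normalization, where timm17b turned to -0.0039 and -0.0067. Leaving out 1 RNA at a time gave 0 to 1456 calls over all genes and 0 to 6 in the set, the upper counts without cadmium replicate 1. The median of the set then lay between 0.19 and 0.22. The sign held without each RNA for 24 genes and turned for 16, and 11 genes moved by less than 1.5 times. Moves beyond that numbered 24 and 25 when cadmium replicate 1 or 2 was left out, and 12 and 14 for control replicate 2 or 3. The cause of these turns was not tested. Where the sign turned, the ranges were -0.016 to 0.10 (afg3l1), -0.23 to 0.23 (afg3l2), -0.025 to 0.14 (clpxa), -0.70 to 0.24 (clpxb), -0.10 to 0.60 (grpel2), -0.030 to 0.087 (oxa1l), -0.29 to 0.054 (phb2a), -0.0077 to 0.30 (pmpca), -0.36 to 0.38 (pmpcb), -0.046 to 0.069 (timm17b), -0.013 to 0.18 (timm23a), -0.22 to 0.46 (tomm20a), -0.29 to 0.20 (tomm34), -0.10 to 0.88 (tomm40l), -0.017 to 0.22 (tomm6) and -0.38 to 0.44 (tomm7). No paired analysis was possible because the groups share only 1 replicate number.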
